A study of Mus musculus with 4 samples.

Results

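The Sult2a genes of mouse liver, Sult2a1 to Sult2a8, encode hydroxysteroid sulfotransferases, and all 8 are listed among the 25239 genes counted in this study. They were chosen by family name, with their measured counts and the direction of their difference in these same 4 libraries already known, so their differences between the groups are given as a description and no p-value of a member is read. Livers came from C57BL/6 mice aged 6 to 8 weeks. The PAs group received an extract of the plant Gynura segetum, brought to 2 g/mL, at 30 g/kg per day by the intragastric route for 3 weeks. The Control group received normal saline. The plant contains pyrrolizidine alkaloids, and the study used it as a model of liver injury caused by them. Each group has 2 RNA sequencing libraries of total liver RNA. Nothing in the labels says that the libraries of a group came from separate animals, so p-values given for other genes describe the spread among these 4 samples, part or all of which may be technical. The labels used here state no sex.

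Cytosolic sulfotransferases move a sulfonate group from the donor 3′-phosphoadenosine 5′-phosphosulfate (PAPS) onto a hydroxyl or amine, which makes the product more soluble in water and easier to excrete. The SULT2A enzymes act on hydroxysteroids such as dehydroepiandrosterone and on bile acids. In mice the liver transcripts of Sult2a1 and Sult2a2 are known to be much more abundant in females than in males, and Sult2a8 has been described as a liver bile acid sulfotransferase. Rodent Sult2a promoters are known targets of the bile acid receptor FXR (Nr1h4) and of the xenobiotic receptors PXR (Nr1i2) and CAR (Nr1i3), which can act through an inverted repeat of a receptor half-site with no spacer, called IR0.

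The 8 genes lie together on chromosome 7, within chr7:13623967-14494230 of GRCm38 (GENCODE vM21 annotation), a stretch of 870 kb. The annotation also lists 4 Sult2a pseudogenes on chromosome 7, whose place relative to this stretch was not checked. Sult2a5 and Sult2a2, at the left end of the stretch, are on the plus strand, and the other 6 are on the minus strand. Sult2a8 (chr7:14410686-14446769) and Sult2a7 (chr7:14465051-14494230) are neighbours at the right end.

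How far the counts of single members can be trusted depends on how much sequence they share, so the first 60 coding bases of 5 members are shown, 5′ to 3′, with capitals where a base differs from Sult2a1. All 5 are read from GENCODE vM21 on GRCm38, on the minus strand, each within 1 exon.
Sult2a1 (chr7:13837297-13837356): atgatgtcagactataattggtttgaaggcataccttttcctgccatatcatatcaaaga
Sult2a4 (chr7:13989532-13989591): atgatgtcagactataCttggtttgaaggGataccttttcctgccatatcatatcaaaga
Sult2a6 (chr7:14254774-14254833): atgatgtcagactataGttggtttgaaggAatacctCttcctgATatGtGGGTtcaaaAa
Sult2a7 (chr7:14492912-14492971): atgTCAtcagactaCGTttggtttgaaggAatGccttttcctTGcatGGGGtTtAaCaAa
Sult2a8 (chr7:14427860-14427919): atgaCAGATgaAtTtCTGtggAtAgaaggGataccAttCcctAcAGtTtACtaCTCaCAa
Over these 60 bases Sult2a2 and Sult2a5 are letter for letter the same as Sult2a1, Sult2a4 differs at 2 bases, Sult2a3 at 4, Sult2a6 at 11, Sult2a7 at 18 and Sult2a8 at 26. Over whole coding sequences, the 15 pairs among Sult2a1 to Sult2a6 were 88.0% to 97.9% identical. Sult2a7 was 76.5% to 81.6% identical with those 6, Sult2a8 was 70.0% to 72.4% identical with them, and Sult2a7 and Sult2a8 were 70.9% identical with each other.

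Of all stretches of 75 bases in its transcripts, Sult2a2 had 47.2% in common with another annotated gene, Sult2a5 had 25.6%, Sult2a1 had 19.5% and Sult2a4 had 11.5%. Their partners were mostly one another. Sult2a6 had 1.45% and Sult2a8 0.24%, Sult2a3 had 8.36% at 50 bases and none at 100, and Sult2a7 had no shared stretch at 50, 75, 100 or 150 bases. The read length is not given in the sources used here, so these lengths only bracket it. Reads from shared stretches cannot be assigned to a single gene, and records with no unique place were not counted in any gene. The counts of Sult2a1, Sult2a2, Sult2a4 and Sult2a5, and the split among them, are therefore uncertain. Their sum, its share of the family and their levels per length may be too low for the same reason. The counts of Sult2a7 and Sult2a8 are less exposed. Reads with no unique place took 5.18% and 5.33% of records in the PAs libraries and 6.70% and 9.03% in the Control libraries. The Sult2a part of these records was not tested.

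**Figure D1:**
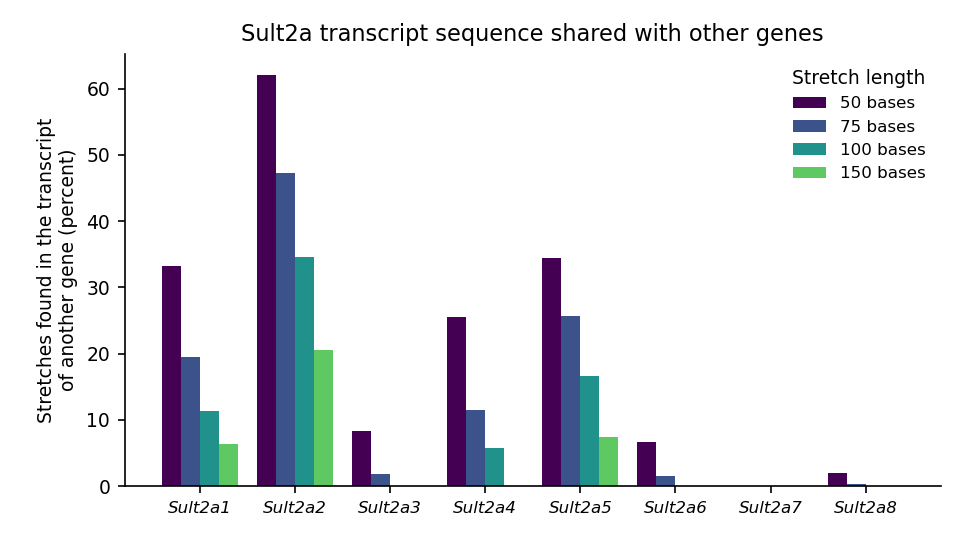
Percent of all stretches of 50, 75, 100 or 150 bases (bars, by length) of each Sult2a gene's annotated transcripts that also occur in the transcript of another gene. Sult2a2 has the tallest bars at all 4 lengths, 62.1% at 50 bases and 20.6% at 150 bases, and Sult2a7 has none.

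The promoters are shown because Sult2a5 carries a full IR0, and Sult2a3, Sult2a4 and Sult2a6 carry a like element that misses it by 1 base. RefSeq promoters (GRCm38.p6, 250 bases before to 50 bases after a start) matched 5 of 8 members and gave 6 promoters, of which Sult2a8 has 2. Sult2a1, Sult2a2 and Sult2a7 have no entry. The stretches below are 90 bases long, 5′ to 3′ on the gene's strand, with the 12-base element in capitals.
Sult2a5 (chr7:13623796-13623885, plus strand): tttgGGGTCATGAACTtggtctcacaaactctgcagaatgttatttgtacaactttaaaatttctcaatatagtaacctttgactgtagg
Sult2a3 (chr7:14123153-14123242, minus strand): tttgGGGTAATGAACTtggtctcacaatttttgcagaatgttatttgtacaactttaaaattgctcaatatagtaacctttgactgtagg
Sult2a4 (chr7:13989749-13989838, minus strand): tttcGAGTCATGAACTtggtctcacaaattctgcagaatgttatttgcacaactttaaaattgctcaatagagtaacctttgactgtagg
Sult2a6 (chr7:14254996-14255085, minus strand): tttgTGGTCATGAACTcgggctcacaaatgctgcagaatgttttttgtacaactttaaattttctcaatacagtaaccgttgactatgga
The motif searched was a half-site, which could be AGGTCA or the variant GGGTCA, or AGTTCA or the variant GGTTCA, followed at once by the reverse complement of any of these, on both strands. Sult2a5 holds a full match, which ends 156 bases before its RefSeq start. Counting positions from 1 at the 5′ end of the element, Sult2a3 differs from Sult2a5 by C5A, Sult2a4 by G2A and Sult2a6 by G1T, so each of these 3 elements misses the motif by 1 base. Of 32851 RefSeq promoters of the same length, 25 held a full IR0 (0.0761%), while 14358 held at least 1 half-site (43.7%). The elements of Sult2a3, Sult2a4 and Sult2a6 were placed by the letters TGAACT, which they share with Sult2a5. Elements that miss the motif by 1 base were not counted over all promoters or in those of Sult2a8. The IR0 share therefore applies to Sult2a5 alone. GTTAAT, part of a site of the liver factor HNF1, was searched on both strands. It occurs in all 4 promoters of Sult2a3 to Sult2a6 and in 7.10% of all promoters. Neither Sult2a8 promoter held an IR0 or GTTAAT, and they held 2 and 4 half-sites. The promoters of Sult2a3 to Sult2a6 were 80.9% to 92.6% identical in pairs, and 58.8% to 65.4% identical with those of Sult2a8. A match of letters is a description of the sequence and says nothing about binding in these livers.

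Sult2a7 ran against the rest of the family. It was high in both PAs libraries and low in both Control libraries, while the other members with reads were lower in PAs. The files hold 40013188 and 45754235 counts in genes for the PAs libraries, and 49711750 and 32215268 for Control. Levels are given as CPM, counts relative to library sizes scaled by the trimmed mean of M-values (TMM), which makes a single read worth 0.0208 to 0.0337 CPM.

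Sult2a7 had 4708 and 5124 counts in the PAs libraries, against 42 and 132 counts in the Control libraries. In CPM these are 109 and 108 in PAs, and 0.875 and 4.44 in Control. Both PAs libraries stand far above both Control libraries. The 2 PAs values differ by 1.02 times, whereas the 2 Control values differ by 5.08 times. The log2 fold change of PAs over Control was 5.42 with a standard error of 0.86, the 55th highest of 13963 genes tested. Leaving out Control 1 gave 4.61, and leaving out Control 2 gave 6.95, so the size of this difference rests on which Control library is used.

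Sult2a8 had the most counts of the family in every library. It had 5950 and 8438 counts in PAs livers, and 20384 and 21490 counts in Control livers. The levels were 138 and 177 CPM in PAs, and 425 and 723 CPM in Control, with no overlap. The fold change was -1.87 on the log2 scale (SE 0.28), much smaller than for the other members that were lower, and ranged from -2.20 to -1.43 over the alternatives tried. Within each group the second library was the higher, by 1.28 times in PAs and by 1.70 times in Control.

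Sult2a1 had 25 and 47 counts in the PAs libraries, against 2325 and 1931 in the Control libraries. The levels were 0.579 and 0.986 CPM in PAs, and 48.5 and 65.0 CPM in Control. Its log2 fold change of -6.16 (SE 0.30) was the 10th lowest of all genes tested. It had the smallest standard error of the 5 members among Sult2a1 to Sult2a6 that could be fitted, and its values over the alternatives ran from -6.63 to -5.85.

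Sult2a2 had 33 and 98 counts in PAs livers, against 3978 and 1169 in Control livers, a log2 fold change of -5.42 (SE 0.67). Sult2a5 had 5 and 24 counts in PAs, against 1159 and 365 in Control, a log2 fold change of -5.84 (SE 0.68). Both genes were higher in Control 1 than in Control 2, by 2.11 and 1.97 times, while Sult2a1 was 1.34 times higher in Control 2. The ratio of Sult2a2 to Sult2a1 counts was therefore 1.32 and 2.09 in PAs, and 1.71 and 0.605 in Control, so the order of these 2 genes was not the same in the 2 Control libraries. Without PAs 1 the fold changes were -4.90 for Sult2a2 and -5.18 for Sult2a5, and without PAs 2 they were -6.33 and -7.28. Without Control 1 they were -4.78 and -5.27.

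Sult2a6 had 0 and 8 counts in PAs livers, against 176 and 52 in Control livers. A count of 0 in the first PAs library allows up to 3 reads, or 0.0695 CPM. The fitted log2 fold change was -4.93 (SE 1.05), or -4.29 without Control 1, -4.00 without PAs 1 and -9.78 without PAs 2. Sult2a4 had 3 and 0 counts in PAs, against 84 and 17 in Control. With so few reads in PAs, its level there was 0.0254 of that in Control, with an exact interval of 0.00516 to 0.0764 for counting error, and it was the fitted member with the largest standard error (1.19). Its fitted log2 fold change was -5.02, or -3.98 without Control 1, -4.03 without PAs 2 and -8.62 without PAs 1. Sult2a3 had no read in either PAs library and 1 read in each Control library, so both groups were at or under the floor of 3 reads and no fold is given.

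The members that passed the filter on low counts were 7 of 8, all but Sult2a3. Of these, 5 were lower and 1 was higher in PAs at an adjusted p under 0.05 in the edgeR fit, against 3.63% lower and 4.91% higher among all 13963 genes tested (8.54% in either direction). The values of the groups did not overlap in the 7 members, as in 54.4% of all genes tested. Since the members were chosen with these differences known, nothing is read from these shares. The number of members past the threshold was 3 without PAs 1 and 5 without PAs 2. Sult2a7, the 1 member past it in the higher direction, was not past it without PAs 1, without PAs 2, with upper-quartile scaling or with no filter on low counts.

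**Figure D2:**
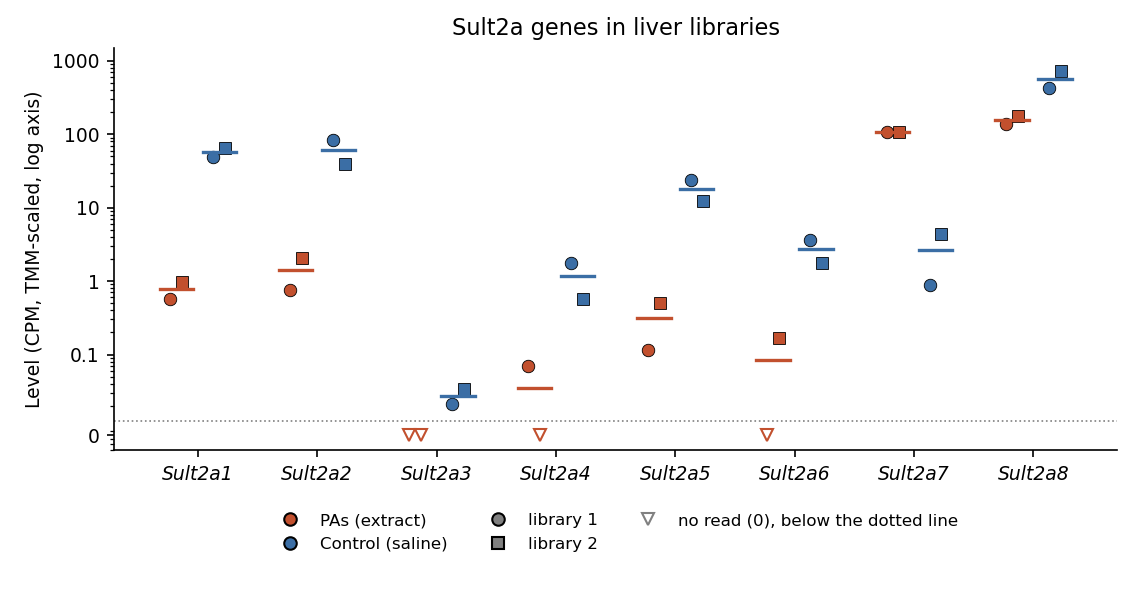
Level of each Sult2a gene (CPM on TMM-scaled library sizes, log axis) in the PAs libraries, left, and the Control libraries, right, with the group mean as a line and libraries with no read below the dotted line. Sult2a7 is the 1 gene with both PAs libraries above both Control libraries, at 109 and 108 CPM against 0.875 and 4.44 CPM.

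From Sult2a5 to Sult2a6 the fitted differences along the cluster had the same sign, while the neighbours Sult2a8 and Sult2a7 differed in sign. Reading from the left end, Sult2a5, Sult2a2, Sult2a1, Sult2a4 and Sult2a6 had fitted log2 fold changes between -6.16 and -4.93. Sult2a3 lies between Sult2a4 and Sult2a6 and was nearly unread in all 4 libraries. Sult2a8 (-1.87) and Sult2a7 (5.42) follow at the right end. The rule for neighbours took 10 genes on each side of the cluster, and no other counted gene lies between members. Of these 20 genes, 16 had no read in any library and 3 were tested. None of the 3 passed the edgeR test at an adjusted p under 0.05, 0 had an unadjusted p under 0.05, and DESeq2 called 0. Their median log2 fold change was -0.23, or 0.15 without Control 1, beside -0.0047 over all genes tested. The nearest with reads were Nlrp5-ps, 36 kb to the right, with 31 and 39 counts in PAs and 19 and 43 counts in Control, and Pla2g4c, 263 kb to the left, with 0 and 2 counts in PAs and 5 and 1 counts in Control.

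**Figure D3:**
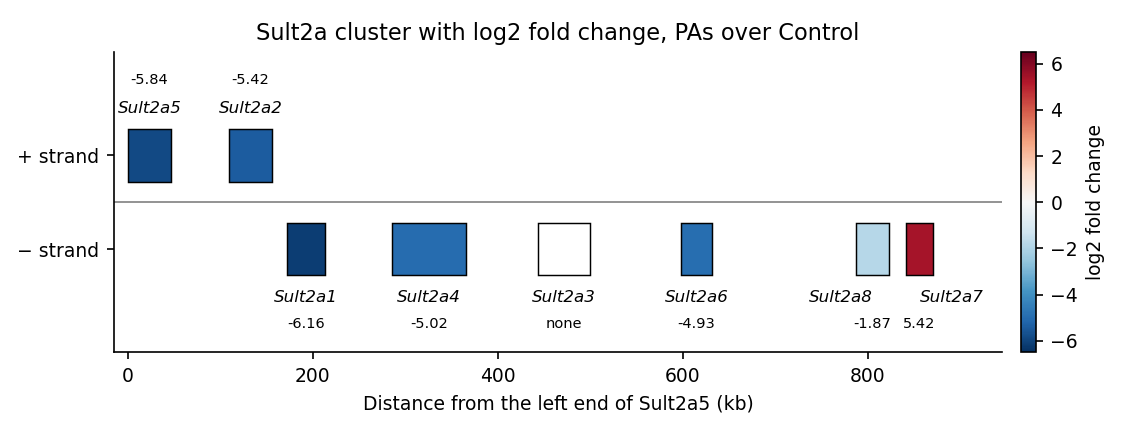
The Sult2a genes drawn to scale by distance in kb from the left end of Sult2a5, plus strand above and minus strand below, coloured by log2 fold change of PAs over Control with the value printed beside each name. Sult2a7, at 5.42, is next to Sult2a8, at -1.87, and Sult2a3 has too few reads for a value.

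Summed over its 8 members, the family had 10724 and 13739 counts in PAs livers, and 28149 and 25157 counts in Control livers. The family level was 268 ± 28.1 CPM in PAs and 717 ± 184 CPM in Control (SD, n = 2 each), a log2 ratio of -1.42, or 37.5% of Control. The groups did not overlap. Sult2a1 to Sult2a6 together were at 2.62 ± 1.54 CPM in PAs and 140 ± 29.7 CPM in Control (SD, n = 2 each), which is 1.87% of Control. The PAs libraries had 1.53 and 3.71 CPM, and the share of Control was 1.08% without PAs 2 and 2.64% without PAs 1. The 7 members other than Sult2a7 were at 160 ± 29.2 CPM in PAs and 714 ± 181 CPM in Control. The 7 members other than Sult2a8 were at 110.9 ± 0.41 CPM in PAs and 142.6 ± 27.2 CPM in Control, a log2 ratio of -0.36.

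Sult2a7 made up 43.9% of the family's counts in PAs 1 (Wilson 95% interval 43.0% to 44.8%) and 37.3% in PAs 2 (36.5% to 38.1%). In Control its share was 0.149% (0.110% to 0.202%) and 0.525% (0.443% to 0.622%). Sult2a8 held 55.5% and 61.4% in PAs, and 72.4% and 85.4% in Control, and so remained the larger part in each library. Sult2a1 to Sult2a6 held 0.615% and 1.29% in PAs, against 27.4% and 14.1% in Control. The family thus consisted almost wholly of 2 genes in PAs livers, Sult2a8 and Sult2a7. The intervals cover counting error only, and the gaps between libraries of a group are wider than they are.

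**Figure D4:**
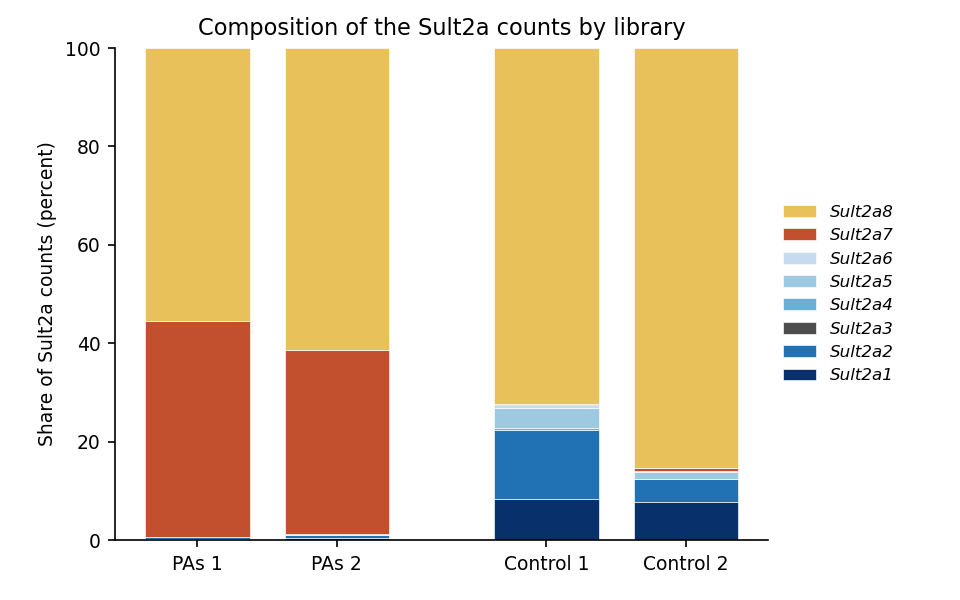
Share of each Sult2a gene in the family's counts, in percent, for the 2 PAs libraries, left, and the 2 Control libraries, right. Sult2a7 fills 43.9% and 37.3% of the PAs bars and under 1% of the Control bars. Sult2a8 fills 55.5% and 61.4% in PAs and 72.4% and 85.4% in Control, where Sult2a1, Sult2a2 and Sult2a5 are also larger.

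Ratios within a library need no scaling between libraries. Sult2a7 over Sult2a8 was 0.791 and 0.607 in PAs, against 0.00206 and 0.00614 in Control, a log2 difference of 7.61 with a spread between replicates of 1.15. Sult2a8 over Sult2a1 to Sult2a6 was 90.2 and 47.7 in PAs, against 2.64 and 6.08 in Control. Sult2a8 over the other 7 members was 1.25 and 1.59 in PAs, against 2.63 and 5.86 in Control, a log2 difference of -1.48. That difference was -2.06 without Control 1 and -0.90 without Control 2. The sign of the Sult2a8 ratio therefore turns on whether Sult2a7 is among the genes it is set against.

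Levels of different genes can be compared only per length, here as CPM per kb of the longest protein-coding transcript. In PAs livers Sult2a7 had 115 ± 1.21 CPM per kb and Sult2a8 had 73.5 ± 12.9 (SD, n = 2 each), a ratio of 1.56, or 1.77 with all annotated exonic bases as the length. The order of these 2 genes rests on the length used. The longest Sult2a8 transcript has 2143 bases, of which 846 are coding, while that of Sult2a7 has 942 bases, of which 939 are coding. Per kb of coding length, Sult2a7 had 115 ± 1.21 and Sult2a8 186 ± 32.7 CPM in PAs, a ratio of 0.62, so no order is given. In PAs livers, Sult2a2 at 1.90 and Sult2a1 at 0.768 CPM per kb came next, and no other member passed 0.296. In Control livers the order was Sult2a8 at 267.8 ± 98.4, Sult2a2 at 82.5 ± 41.6, Sult2a1 at 55.6 ± 11.5 and Sult2a5 at 17.4 ± 8.02 CPM per kb. Sult2a2 and Sult2a1 overlapped between the 2 Control libraries. In Control, Sult2a7 and Sult2a6, both at 2.82 CPM per kb, could not be ordered, and Sult2a4 at 1.18 and Sult2a3 at 0.0268 CPM per kb were lowest. The annotated Sult2a2 transcript is shorter than those of its relatives, with 582 coding bases against 855 for Sult2a1. The annotation behind the counts is not named, and the effect of this on the level of Sult2a2 per length was not tested.

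Transcripts of Papss1, Papss2 and Slc35b2, genes of PAPS synthesis and transport, gave no difference of comparable size. PAPS itself was not measured. Papss2, the main PAPS synthase of liver, had 349 and 344 CPM in PAs and 423 and 316 CPM in Control, with a log2 fold change of -0.09 (SE 0.18, edgeR adjusted p = 0.811). Papss1 had a log2 fold change of 0.15 (SE 0.21, edgeR adjusted p = 0.725). Slc35b2, which carries PAPS into the Golgi, had 27.1 and 30.1 CPM in PAs, against 41.4 and 39.6 CPM in Control. Its edgeR adjusted p was 0.0771 with all libraries, 0.0183 without Control 1 and 0.00509 without Control 2. Of the 29 genes listed for sulfonation, which include the other sulfotransferases, 21 were tested. None was past the threshold in the edgeR fit, with 5 at an unadjusted p under 0.05. DESeq2 called 1 higher (Sult1d1) and 3 lower (Slc35b2, Sult1c2 and Sult3a1), and without Control 1 the edgeR fit called 2 higher and 5 lower. The list's median log2 fold change was -0.05.

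Sult3a1, another sulfotransferase known to be more abundant in female mouse liver, had 272 and 443 counts in PAs, against 1208 and 8070 in Control. Its 2 Control libraries differ far more than those of any Sult2a gene, and its edgeR adjusted p was 0.267. Sult1d1 had 219 and 214 CPM in PAs, and 163 and 137 CPM in Control (edgeR adjusted p = 0.0794). Sult1c2 had 1.41 and 0.734 CPM in PAs, and 4.88 and 2.66 CPM in Control (edgeR adjusted p = 0.0780). These 3 genes fall outside the rule for named genes and were chosen after their values were seen.

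FXR, PXR and CAR were read in all 4 libraries, whereas Vdr, the vitamin D receptor, had 1 and 1 counts in PAs and 2 and 0 counts in Control. Nr1h4 (FXR) had 135 and 152 CPM in PAs and 83.0 and 126 CPM in Control, with an edgeR adjusted p of 0.266, or 3.63e-05 without Control 2. Nr1i2 (PXR) had 105 and 123 CPM in PAs and 85.0 and 88.9 CPM in Control, with an edgeR adjusted p of 0.163, or 0.0394 without Control 2. Nr1i3 (CAR) had 75.8 and 98.3 CPM in PAs and 55.4 and 126 CPM in Control. Its groups overlap, its edgeR adjusted p was 0.962, and its sign depended on the Control library, at 0.66 on the log2 scale without Control 2 and -0.53 without Control 1.

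Among 27 tested receptors and factors, 2 rose and 3 fell at an edgeR adjusted p under 0.05, with a list median of -0.15. The share called was 18.5%, beside 8.54% of all genes tested. Nr0b2, the corepressor SHP induced by FXR, fell to 23.9 and 31.5 CPM in PAs, against 60.6 and 47.6 CPM in Control (edgeR adjusted p = 0.0299). Ghr, the growth hormone receptor, fell to 269 and 296 CPM in PAs, against 521 and 516 CPM in Control (edgeR adjusted p = 0.0140). Stat5b, through which growth hormone acts on sex-biased liver genes, fell to 65.8 and 65.0 CPM, against 127 and 98.9 CPM in Control (edgeR adjusted p = 0.0318). Cebpb, a liver transcription factor, rose to 135 and 133 CPM in PAs, against 67.2 and 76.0 CPM in Control (edgeR adjusted p = 0.0120). Esrra, an orphan nuclear receptor, rose to 72.8 and 59.1 CPM, against 34.5 and 27.1 CPM in Control (edgeR adjusted p = 0.0155). Without PAs 1 none of these 5 was past the threshold (edgeR adjusted p 0.0918 to 0.210), and without PAs 2 neither Ghr (0.0982), Cebpb (0.103) nor Stat5b (0.202) was. Nr0b2 (0.0610) and Stat5b (0.0815) also missed it when libraries were scaled by their totals alone, a scaling that shifts the median log2 fold change of all genes to 0.16.

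Of 35 tested genes of bile acid and hydroxysteroid metabolism, 2 rose and 3 fell at an edgeR adjusted p under 0.05. The share called was 14.3%, beside 8.54% of all genes tested. The list median was -0.16, or 0.07 without Control 2. Cyp8b1, the sterol 12-alpha-hydroxylase of bile acid synthesis, fell to 11.7 and 9.90 CPM in PAs, against 182 and 238 CPM in Control (edgeR adjusted p = 0.000292). Abcc4, a transporter of the basolateral membrane that exports sulfated steroids and bile acids, rose to 43.9 and 29.0 CPM, against 4.90 and 2.79 CPM in Control (edgeR adjusted p = 0.00509). The canalicular transporter Abcc2 rose to 813 and 621 CPM, against 428 and 390 CPM in Control (edgeR adjusted p = 0.0390). Hsd3b7, an enzyme of bile acid synthesis, fell by 1.37 on the log2 scale (edgeR adjusted p = 0.0187), and Hsd17b2, which oxidises sex steroids, fell by 1.48 (edgeR adjusted p = 0.0366). Abcc2, Hsd3b7 and Hsd17b2 were not past the threshold without PAs 1 (edgeR adjusted p 0.391, 0.101 and 0.196) or without PAs 2 (0.0781, 0.0518 and 0.108). The list had 1 rise and 1 fall without either of the PAs libraries, against 8 rises and 12 falls without Control 1 and 6 rises and 10 falls without Control 2.

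Because Sult2a1 and Sult2a2 belong to the female-biased genes of mouse liver, other genes known for such a bias were counted. Of 30 tested female-biased genes without the Sult2a family, 8 fell and 1 rose at an edgeR adjusted p under 0.05. The share called was 30.0%, beside 8.54% of all genes tested. The list median was -0.85, or -0.39 without Control 2. A1bg, a secreted glycoprotein, fell to 14.4 and 13.6 CPM in PAs, against 182 and 160 CPM in Control (edgeR adjusted p = 0.000206). The cytochromes P450 Cyp2b13, Cyp2c40 and Cyp2b9 fell by 3.36, 1.87 and 1.57 on the log2 scale (edgeR adjusted p 0.00168, 0.00342 and 0.00347). Cyp2a4, a steroid 15-alpha-hydroxylase, rose to 1245 and 1351 CPM in PAs, against 501 and 555 CPM in Control (edgeR adjusted p = 0.00509). The 8 falls were 5 without either PAs library, 16 without Control 1 and 15 without Control 2, and the 1 rise was 6 without Control 1 and 9 without Control 2.

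Of 31 tested male-biased genes, 6 rose and 3 fell at an edgeR adjusted p under 0.05. The share called was 29.0%, beside 8.54% of all genes tested. The list median was -0.74, so the count and the median differ in sign. The median was 0.08 without Control 2, with 16 of 31 genes above 0, so its sign rests on that library. Mup20, a major urinary protein, rose to 1008 and 936 CPM in PAs, against 112 and 93.2 CPM in Control (edgeR adjusted p = 0.000292). Gstp1, a glutathione transferase, rose by 2.23 on the log2 scale (edgeR adjusted p = 0.000824), Cyp2d9 by 1.70 (edgeR adjusted p = 0.0130) and Nat8 by 2.69 (edgeR adjusted p = 0.0132, or 0.132 without PAs 1). Selenbp2 fell by 1.27 (edgeR adjusted p = 0.00514) and the complement gene C6 by 1.32 (edgeR adjusted p = 0.0137, or 0.0689 without PAs 2). The 6 rises were 3 without PAs 1 and 4 without PAs 2, and the 3 falls were 16 without Control 1, 4 without Control 2 and 2 without either PAs library. Xist, transcribed from the inactive X chromosome of female cells, had 775 and 982 CPM in PAs and 754 and 1073 CPM in Control (edgeR adjusted p = 0.916). The Y-linked genes Ddx3y, Eif2s3y, Kdm5d and Uty had no read in any of the 4 libraries.

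**Figure D5:**
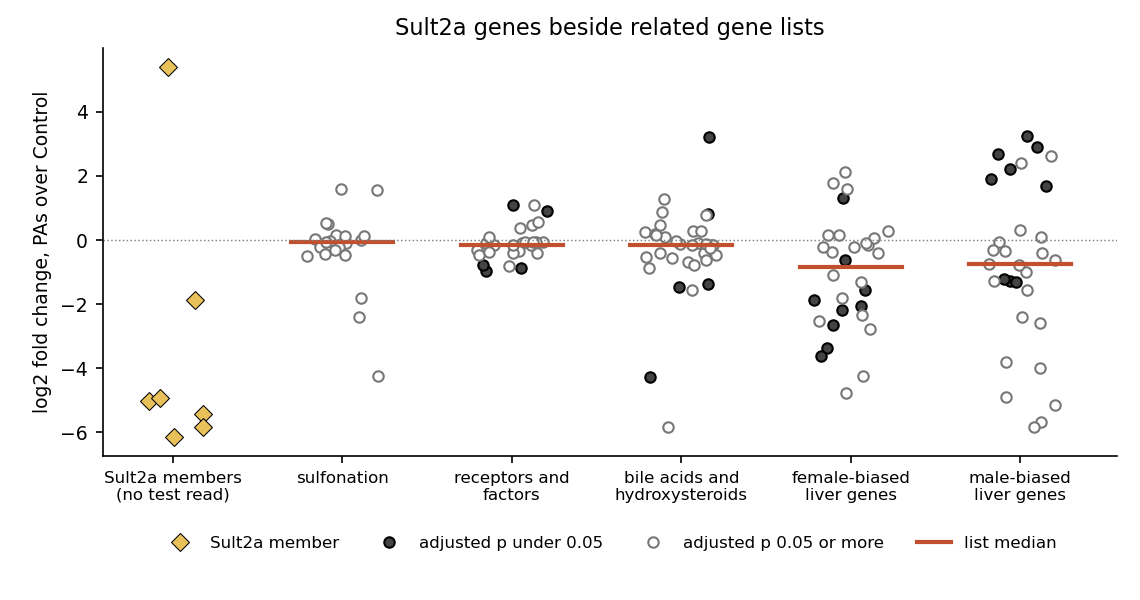
Log2 fold change of PAs over Control for the 7 Sult2a genes that could be fitted (diamonds, no test read) and for the tested genes of 5 lists, filled where the edgeR adjusted p was under 0.05, with each list's median as a line. The list medians run from -0.85 in female-biased genes to -0.05 in sulfonation genes, and all but 1 of the diamonds lie below 0.

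The label of the tissue was set against markers of its cells. The 12 hepatocyte markers were all present, with 4 lower at an edgeR adjusted p under 0.05. Their summed level was 123300 and 128600 CPM in PAs, and 187200 and 195000 CPM in Control, or 65.9% of Control, beside 37.5% for the Sult2a family. Alb, the serum albumin gene, had 69250 and 74590 CPM in PAs and 105700 and 109100 CPM in Control (edgeR adjusted p = 0.0982, DESeq2 adjusted p = 0.00126). All 6 Kupffer cell markers were lower by the same test, with summed levels of 21.6 and 25.2 CPM in PAs against 429 and 359 CPM in Control. Sinusoidal endothelial markers were lower in 5 of 6, with 114 and 117 CPM in PAs against 252 and 252 CPM in Control. Cholangiocyte markers summed to 43.9 and 46.2 CPM in PAs, and 43.2 and 50.4 CPM in Control, with 1 of 5 tested (Sox9) lower. Most of that sum was Spp1, with a log2 fold change of -0.05. Krt19, Krt7 and Epcam went the other way from Sox9, at 1.52, 1.02 and 0.44, none past the threshold. Adrenal cortex markers summed to 3.15 and 3.21 CPM in PAs, and 2.08 and 3.23 CPM in Control, with Cyp11b1 and Mc2r at 0 in all libraries. Small intestine markers summed to 245.6 and 183.3 CPM in PAs, and 147.8 and 334.2 CPM in Control. Most of that was Apoa4, at 230 and 160 CPM in PAs and 128 and 290 CPM in Control, and Fabp2, while Cdx2 and Sis were at 0 in all libraries. Pancreas markers summed to 11.7 and 14.4 CPM in PAs, and 9.04 and 29.8 CPM in Control, most of it Cela1, with Cpa1 at 0. These are bulk libraries, in which fewer cells of a type and less RNA per cell cannot be told apart. The part of cell makeup in the Sult2a values was not tested.

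The genes whose pattern over the 4 libraries was most like that of the family total were found by the root mean square distance of log2(CPM + 1), each centred on its own mean, over 13226 genes. Nearest were Hsd3b7 (0.050), Tymp (0.055), Acsl1 (0.056), Atf5 (0.065) and Smagp (0.073). Acsl1, a fatty acyl-CoA synthetase, had 423 and 470 CPM in PAs against 981 and 1533 CPM in Control, the same order of libraries as the family. Nearest to Sult2a8 were Ugt3a1 (0.047), Clec4g (0.070), Chac1 (0.117), Cyp2c40 (0.128) and Hectd2os (0.150). Ugt3a1, a UDP-glycosyltransferase, had 13.2 and 17.9 CPM in PAs against 41.4 and 69.6 CPM in Control. Added after the values were seen, the same measure placed Serpina1e (0.296), Clec4f (0.410) and Vsig4 (0.752) nearest to the sum of Sult2a1 to Sult2a6. It placed Phlda3 (0.592), Inka2 (0.601) and Cox6b2 (0.632) nearest to Sult2a7. Phlda3 had 141 and 136 CPM in PAs, against 1.46 and 1.72 CPM in Control. Only 4 libraries enter the distance, so it describes these libraries and nothing else.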

How the data were processed

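Total RNA of mouse liver was extracted with Trizol and sequenced on Illumina libraries, per the labels' protocols. CASAVA 1.8, HISAT2 2.1.0, HTSeq and the mm10 build are named per the submitters' processing notes, without roles. No source used here names the annotation, read length or strand setting. The authors deposited raw counts per gene symbol, with 5 closing rows that name no gene; those took 0.552% to 10.2% of records each and stayed out of library sizes. Counts were filtered with filterByExpr, scaled by TMM and fitted with edgeR 4.0.16 (R 4.3.3, glmQLFit with robust estimation, glmQLFTest, 2-sided, Benjamini-Hochberg over 13963 genes, threshold 0.05). Fold changes are log2 of PAs over Control. Their standard errors (SE) are the absolute fold change divided by the square root of the edgeR F statistic. They were not estimated separately from that test. The biological coefficient of variation was 22.3%. Scripts were tested on simulated data. Replicates were not copies of 1 library: chi-square per degree of freedom was 29.1 in PAs and 118 in Control. The Sult2a genes and the gene lists were chosen with earlier results of these data known. From each list were named up to 4 genes past the threshold, by p-value and averaging 1 CPM or more, in the direction with more calls, and up to 2 in the other, besides Papss1, Papss2, Slc35b2, Nr1h4, Nr1i2, Nr1i3, Xist, Alb and the nearest 5 genes by likeness. Alternatives were DESeq2 1.42.0, other scalings, other low-count filters, a replicate block and each library left out. Intervals and floors of 3 reads cover counting error only.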

Additional observations from a re-analysis of the deposited data

How the results depend on the processing

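The 7 fitted Sult2a genes kept their direction under each alternative run. Of 76 values, 12 moved by over 1.5 times, each with a library left out, in Sult2a2, Sult2a4, Sult2a5, Sult2a6 and Sult2a7. The farthest were Sult2a6 at -9.78 without PAs 2 (28.8 times) and Sult2a4 at -8.62 without PAs 1 (12.1 times). Next came Sult2a7 at 6.95 without Control 2 (2.89 times) and Sult2a5 at -7.28 without PAs 2 (2.71 times). The ratio of Sult2a7 to Sult2a8 per length in PAs was 0.62 by coding length, against 1.56 by longest transcript; this alternative, like the other lengths and those of the Sult2a1 to Sult2a6 sum, was chosen after seeing the data. The family total ranged from -1.66 to -1.13 with a library left out. Counts of genes past the threshold moved more. Over all genes, 686 rose and 507 fell with all libraries. DESeq2 called 1034 and 921, and leaving out a library gave 233 to 1826 rises and 134 to 1782 falls. With DESeq2, sulfonation genes had 1 rise and 3 falls, and bile acid and hydroxysteroid genes 5 and 7. Female-biased genes had 2 rises and 12 falls by the same method, and male-biased genes 6 rises and 8 falls. With no filter on low counts, sulfonation genes had 1 rise and 1 fall, and bile acid and hydroxysteroid genes 2 rises and 5 falls. With library totals alone, sulfonation genes had 1 rise and 0 falls, and receptors and factors 2 rises and 1 fall. With the replicate block, sulfonation genes had 1 rise and 2 falls, bile acid and hydroxysteroid genes 4 and 5, and male-biased genes 6 and 5. In that fit 3 Sult2a genes in place of 6 were past the threshold, Sult2a7 not among them, and Alb was past it (edgeR adjusted p = 0.0405). Same-numbered libraries deviated together with r = 0.22 across 13963 genes, but with 2 pairs and no label the number is not shown to pair them. Leaving out a library gave 0 to 2 rises and 0 to 5 falls for sulfonation genes, 0 to 5 and 0 to 6 for receptors and factors, 1 to 8 and 1 to 12 for bile acid and hydroxysteroid genes, 1 to 9 and 5 to 16 for female-biased genes, and 3 to 8 and 2 to 16 for male-biased genes. Neighbours had 0 to 1 falls. Nr1i3 was -0.05 with all libraries, 0.66 without Control 2 and -0.53 without Control 1. In these fits the lone library of a group is assumed to vary like the other group. The cause of these shifts was not tested. With 2 libraries a group and 0 to 8 reads for Sult2a3, Sult2a4 and Sult2a6 in PAs libraries, the size of their differences is limited by depth.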
